A study of Bos taurus with 48 samples.

Results

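The 12 mammary libraries labelled parenchyma and the 12 labelled fat pad from dairy calves on restricted or unlimited nutrition were compared, 24 of the 48 samples in the labels and of the 47 with counts used. They were chosen by their tissue and diet labels, but the decision to leave out the control diet drew on the counts. Each tissue label held 6 libraries of restricted calves, whose daily milk replacer was cut back, and 6 of unlimited calves, which drank it freely at each of 3 daily feedings. The question was how the tissue labels differ once diet is accounted for. Control calves on a standard ration were left out of the test, because most libraries labelled fat pad control resemble those labelled parenchyma, as given further on. The labels give no age, sex or breed, and do not say that the 6 libraries of a group are 6 calves. The p-values therefore speak of the spread among these libraries, which may be partly technical.

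Mammary parenchyma holds the branching ducts of the gland, lined by epithelial cells and wrapped in myoepithelial cells and connective tissue. The mammary fat pad is the bed of adipocytes, vessels and stroma into which those ducts extend. In young calves the parenchyma is a small mass beside a much larger fat pad, and milk replacer intake is known to affect the growth of both.

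The tissue labels could not be checked against defining markers of epithelium or adipocytes. The tables identify genes by Ensembl identifier only, and 0 of the 27607 identifiers matched the RefSeq table at hand, so no gene is named and no list of pathway or cell type genes could be read. The titles do not settle the labels either. The series title abbreviates parenchyma as PAR and fat pad as MFP, yet 2 control libraries with PAR in their titles are labelled fat pad, and a control sample titled PAD, not analysed here, is labelled parenchyma. Titles of the 24 libraries carry PPP, PPT or PP under the fat pad label and TP or PTP under the parenchyma label, with no meaning given. Every direction below follows the tissue field and was not verified independently. An exchange of the tissue labels among these 24 libraries is possible, and it would turn every direction given here.

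Total gene counts ranged from 9.70 to 19.0 M (mega, the metric prefix) per library. They averaged 13.3 ± 3.36 M (SD, n = 12) in libraries labelled parenchyma and 14.6 ± 2.21 M (n = 12) in those labelled fat pad, a difference that did not pass a two-sided permutation test (p = 0.268, adjusted p = 0.302 over 9 library measures). The share of uniquely placed reads assigned to genes was 36.6% ± 6.75 and 37.8% ± 5.06 (permutation p = 0.639). In restricted calves the parenchyma-labelled libraries held 9.70 to 17.2 M counts and the fat-pad-labelled ones 12.6 to 16.7 M. No pair of libraries held identical counts.

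The tissue label separated the libraries along the main axis of variation. The first principal component of log2 CPM (counts per M counts) carried 68.1% of the variance and the second 5.16%. Libraries labelled parenchyma lay between -99.3 and -82.0 on the first component, and those labelled fat pad between 61.0 and 110.7.

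Most genes that could be tested differed in level between the tissue labels. Of 16077 genes with enough counts, 10566 were called at an adjusted p under 0.05 by edgeR's quasi-likelihood test with Benjamini-Hochberg adjustment, 65.7% of those tested. Of these, 5071 had their higher level under the parenchyma label (31.5%) and 5495 under the fat pad label (34.2%). The median called gene differed 1.78-fold where parenchyma was higher and 1.90-fold where fat pad was higher. Over all tested genes the median log2 difference, parenchyma minus fat pad, was -0.018, with quartiles at -0.54 and 0.47 and a median standard error of 0.14.

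The near-even split between directions rested on scaling factors that differed between the labels. TMM factors, which correct for a few abundant genes taking up counts, averaged 0.898 (0.813 to 1.00) under the parenchyma label and 1.12 (1.06 to 1.22) under the fat pad label, with no overlap. With total counts in place of these factors, the median log2 difference of all genes shifted by -0.32, and 3135 genes were called higher in parenchyma against 8462 in fat pad, or 27.0% of calls in place of 48.0%. Across both scalings, 37 genes called in each had opposite signs. In bulk RNA, fewer cells of a type and less RNA per cell cannot be told apart.

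Large differences leaned to the fat pad label. Against a minimum difference of 2-fold (edgeR's glmTreat, adjusted p under 0.05), 1489 genes passed on the parenchyma side (9.26% of those tested) and 2010 on the fat pad side (12.5%). In 1366 genes all 12 parenchyma-labelled libraries lay above all 12 fat-pad-labelled ones (8.5%), and in 1922 the reverse held (12%). At a fitted difference of 8-fold or more there were 367 called genes on the parenchyma side and 778 on the fat pad side. At 32-fold or more there were 39 and 373, and at 128-fold or more 0 and 150. With total counts in place of scaling factors there were 274 and 913 genes at 8-fold and 19 and 422 at 32-fold. That change shifts log2 differences toward fat pad, by -0.32 at the median, so it could not have weakened the lean and is no check on it.

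**Figure D1:**
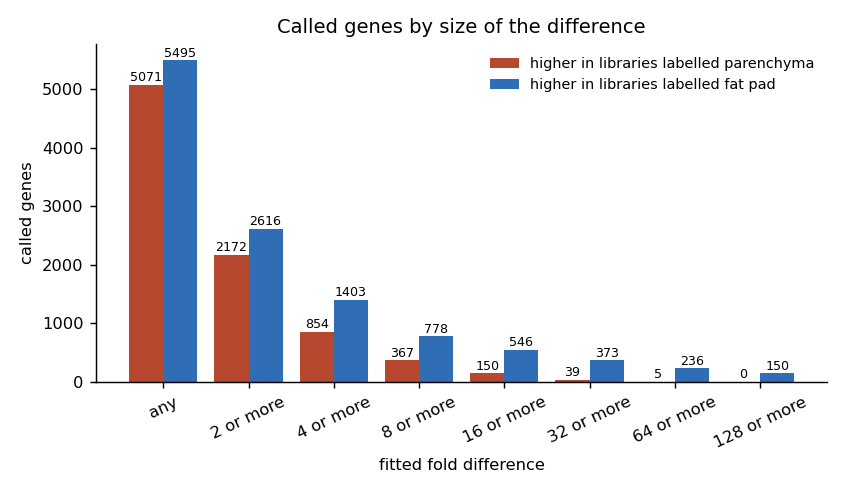
Number of called genes (vertical axis) at or above each fitted fold difference (horizontal axis), in red for genes higher in the 12 libraries labelled parenchyma and in blue for those higher in the 12 labelled fat pad. The bars start near each other at 5071 and 5495 and separate with size, to 39 and 373 at 32-fold or more and 0 and 150 at 128-fold or more.

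Genes nearly absent under a single label were found mainly under the parenchyma label. In 245 genes every fat-pad-labelled library was at 1 CPM or more and every parenchyma-labelled library below 1 CPM, while the reverse held for 38. With the lower limit set at 0.1 CPM, the numbers were 12 and 0. Among tested genes, 48 had 0 counts in all 12 parenchyma-labelled libraries, and none had 0 counts in all 12 fat-pad-labelled libraries. For these 48, a count of 0 allows up to 0.0210 CPM (3 counts over the group, counting error only). Their mean in fat-pad-labelled libraries ranged from 0.679 to 43.6 CPM. They passed the filter on low counts only through the fat-pad-labelled libraries, so that filter sets the low end of this range. The gene of highest level among them was at least 2077-fold higher under the fat pad label. Fitted folds of such genes depend on a small added count. Without them, 325 genes remained at 32-fold or more and 116 at 128-fold or more on the fat pad side.

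Many of the genes beyond 2-fold were present under both labels. Of the 1489 genes beyond 2-fold on the parenchyma side, 1092 (73.3%) had a median of 1 CPM or more in fat-pad-labelled libraries. Of the 2010 on the fat pad side, 1072 (53.3%) had such a median in parenchyma-labelled libraries.

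The share called on each side varied with level, and its direction among abundant genes depended on scaling. The tested genes were split into 4 equal classes by mean log2 CPM over the 24 libraries, a level that is not corrected for gene length. In the class of lowest level 22.6% were called on the parenchyma side and 34.5% on the fat pad side, and in the class of highest level 43.0% and 28.8%. With total counts in place of scaling factors the highest class turned over, to 26.9% and 52.6%. Beyond 2-fold, the lowest class held 387 genes on the parenchyma side and 812 on the fat pad side, and the highest held 484 and 202. With total counts those numbers were 315 and 972 in the lowest class and 351 and 290 in the highest, so the lean of strong differences among abundant genes kept its direction and was smaller.

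The few genes picked by p-value had different patterns on the 2 sides, which need not hold for other genes of low p. Their levels are given by identifier, without a role. The 2 of lowest p on each side, at a mean log2 CPM of 1 or more, are described here. Their separation between the labels follows from this choice and is not a separate result. Of all tested genes, 8.5% showed no overlap on the parenchyma side and 12% on the fat pad side. ENSBTAG00000009065 was at 132, 147 and 192 CPM (lowest, median and highest of 6) in restricted parenchyma-labelled libraries and at 104, 111 and 123 CPM in unlimited ones. In fat-pad-labelled libraries it was at 22.5, 24.8 and 29.5 CPM under restricted and 21.2, 24.4 and 30.7 CPM under unlimited nutrition. Every parenchyma-labelled library was above every fat-pad-labelled one. The log2 difference was 2.35 ± 0.09 (SE, edgeR adjusted p = 1.37e-17).

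ENSBTAG00000004899 was at 150, 189 and 222 CPM in restricted and 130, 152 and 179 CPM in unlimited parenchyma-labelled libraries. Under the fat pad label it was at 27.4, 31.1 and 40.4 CPM in restricted and 25.6, 31.4 and 48.3 CPM in unlimited libraries. The groups did not overlap, and the log2 difference was 2.35 ± 0.10 (SE, edgeR adjusted p = 1.21e-16). Both genes were above 20 CPM in all 24 libraries and differed 5.10-fold and 5.11-fold.

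ENSBTAG00000012647 was close to absent under the parenchyma label. It had 31 counts over those 12 libraries, from 0 to 7 in each, and its highest level there was 0.650 CPM. In fat-pad-labelled libraries it was at 115, 173 and 264 CPM under restricted and 96.8, 144 and 176 CPM under unlimited nutrition. The pooled level was 741 times higher under the fat pad label (exact 95% interval 522 to 1091, counting error only), and the fitted log2 difference was -9.47 ± 0.25 (SE, edgeR adjusted p = 8.48e-20).

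ENSBTAG00000001952 followed the same pattern, with 18 counts over the 12 parenchyma-labelled libraries, 0 to 3 in each, and at most 0.305 CPM. Under the fat pad label it was at 48.0, 71.9 and 116 CPM in restricted and 47.9, 74.1 and 108 CPM in unlimited libraries. The pooled ratio was 611 (exact 95% interval 387 to 1032) and the log2 difference -9.15 ± 0.25 (SE, edgeR adjusted p = 8.48e-20). For both of these genes, with few counts under the parenchyma label, this SE comes from the test statistic and may be too small. DESeq2 and limma voom gave SEs of 0.30 and 0.61 for ENSBTAG00000012647, and 0.38 and 0.69 for ENSBTAG00000001952. For neither gene did any library of a label reach the range of the other.

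**Figure D2:**
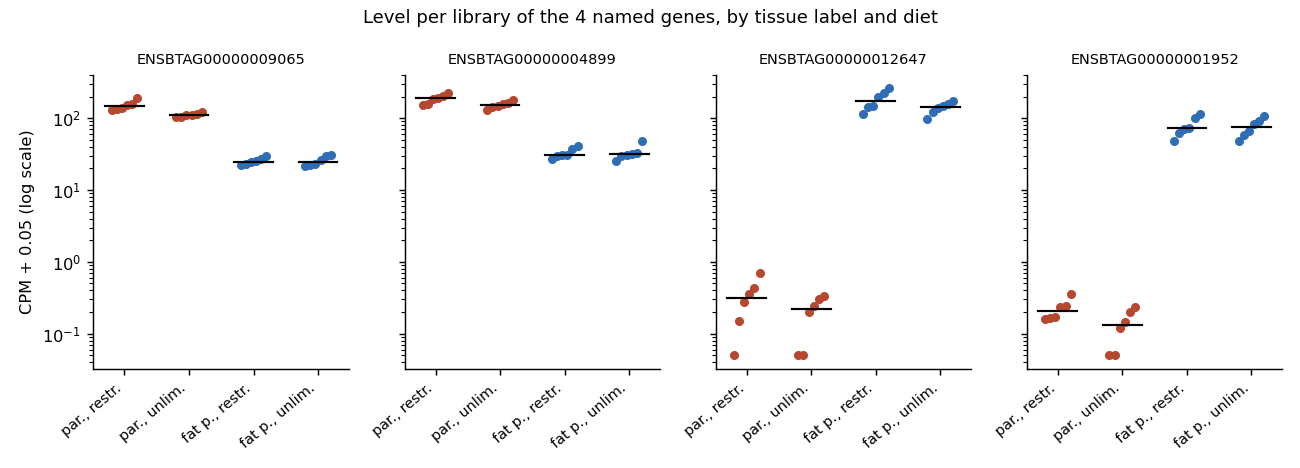
Level of 4 genes in each of the 24 libraries, as CPM plus 0.05 on a log axis, by tissue label and diet, with each dot a library, dots ordered by level within a group and the line at the group median. The first pair lies above 100 CPM under the parenchyma label and below 50 CPM under the fat pad label, and the second pair below 1 CPM under the parenchyma label and above 40 CPM under the fat pad label.

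Control libraries were left out of the fit because most of those labelled fat pad resemble parenchyma. Their levels, which did not follow the fat pad label for these genes, are therefore not an independent result. On a scale set over all 47 libraries, ENSBTAG00000012647 was at 0.177 to 0.288 CPM in the 3 libraries labelled parenchyma control and at 0 to 1.47 CPM in the 4 labelled fat pad control. ENSBTAG00000001952 was at most 0.0589 CPM and at most 0.257 CPM in these groups. ENSBTAG00000009065 was at 112 to 132 CPM in parenchyma controls and 45.2 to 113 CPM in libraries labelled fat pad control. For ENSBTAG00000012647, all 4 of them thus lay far below every restricted and unlimited library labelled fat pad, where the lowest was 81.9 CPM on the same scale. In liver of restricted and unlimited calves, ENSBTAG00000012647 was at 0.869 to 4.84 CPM and ENSBTAG00000001952 at 0 to 0.861 CPM, so both were low there as well.

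Counts were spread over more genes under the fat pad label. The effective number of genes, the exponential of the Shannon entropy of the count shares, which is larger the more evenly reads fall on genes, was 2459 ± 231 (SD, n = 12) in parenchyma-labelled and 3481 ± 338 (n = 12) in fat-pad-labelled libraries (two-sided permutation test, p = 2e-05, the smallest it can give, adjusted p = 6e-05). The ranges overlapped, at 2054 to 2861 and 2726 to 3892. Within unlimited nutrition they did not, at 2054 to 2495 and 3150 to 3693, while restricted libraries were at 2160 to 2861 and 2726 to 3892. The 100 most abundant genes of each library took 32.1% ± 1.97 and 25.6% ± 2.09 of its counts (permutation p = 2e-05, adjusted p = 6e-05). At the depth of the shallowest library, 18063 ± 361 and 18901 ± 458 genes had a count (permutation p = 4e-05, adjusted p = 7.2e-05).

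**Figure D3:**
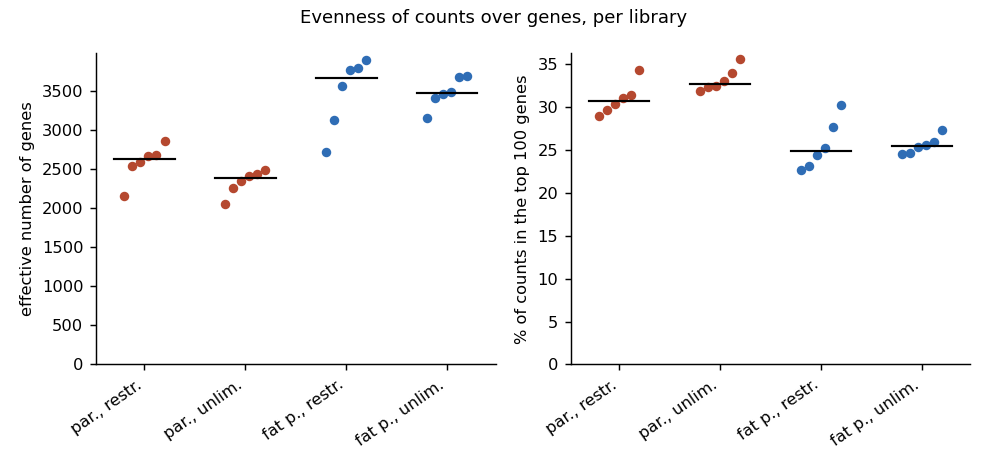
Effective number of genes (left) and share of counts in the 100 most abundant genes in percent (right) for each of the 24 libraries, by tissue label and diet, with dots ordered by value within a group and lines at group medians. Parenchyma-labelled libraries average 2459 effective genes and 32.1% of counts in the top 100, and fat-pad-labelled ones 3481 and 25.6%.

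The most abundant genes were largely shared between the labels. By mean CPM, 66 genes were in the top 100 of both. Each top 100 was picked by level under its own label, which favours genes higher there, so its calls are not an independent result. Over all tested genes, 31.5% were called higher in parenchyma and 34.2% in fat pad. The parenchyma top 100 held 31.6% of parenchyma-labelled and 22.9% of fat-pad-labelled counts, with 71 of them called higher in parenchyma and 6 in fat pad, or 56 and 18 with total counts in place of scaling factors. The fat pad top 100 held 25.2% of fat-pad-labelled and 27.0% of parenchyma-labelled counts, with 38 called higher in parenchyma and 28 in fat pad, a direction that turned to 22 and 49 with total counts.

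The tissue difference was then fitted in each diet alone, in fits that had no library in common. Restricted libraries gave 7369 called genes of 15075 (48.9%), of which 2606 passed the 2-fold test (17.3%). Unlimited libraries gave 9124 of 15019 (60.7%), with 3051 beyond 2-fold (20.3%). Whether the tissue difference itself changed with diet was not tested. Over the 14740 genes tested in both, the log2 differences had a Pearson r of 0.948 and a Spearman rho of 0.889 across genes, which are not independent replicates.

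Calls beyond 2-fold in a single diet kept their direction in the other with few exceptions. Of genes tested in both fits, 2208 passed the 2-fold test in both, 86.9% of the 2542 in restricted and 74.8% of the 2953 in unlimited libraries, and 0 of them had opposite signs. Genes with the opposite sign in the other diet numbered 2 of 2542 and 6 of 2953. The 1089 genes chosen in restricted libraries as higher in parenchyma had a median log2 difference of 2.30 there and 2.21 in unlimited libraries. The 1453 chosen as higher in fat pad had medians of -2.72 and -2.56. For ENSBTAG00000009065 the log2 difference was 2.59 ± 0.12 (SE) in restricted and 2.14 ± 0.10 in unlimited libraries, and for ENSBTAG00000012647 it was -9.25 ± 0.37 and -9.73 ± 0.30.

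**Figure D4:**
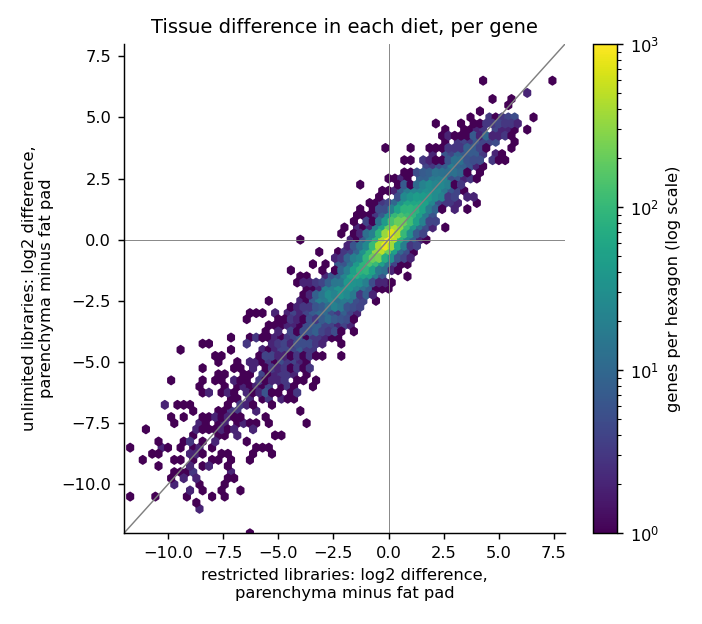
Log2 difference between tissue labels (parenchyma minus fat pad) in restricted libraries (horizontal axis) and in unlimited libraries (vertical axis) for the 14740 genes tested in both, with color for the number of genes per hexagon on a log scale and the diagonal in grey. Genes lie along the diagonal, with a Pearson r of 0.948, and scatter more at large negative differences.

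Sets chosen in restricted libraries alone were then read in libraries that had no part in the choice. The genes beyond 2-fold there numbered 1112 on the parenchyma side and 1494 on the fat pad side. The parenchyma-side set took 17.5%, 18.5% and 20.1% of counts (lowest, median and highest of 6) in unlimited parenchyma-labelled libraries and 3.39%, 3.70% and 7.49% in unlimited fat-pad-labelled ones. The fat-pad-side set took 7.06% to 8.33% in unlimited fat-pad-labelled and 0.965% to 1.13% in unlimited parenchyma-labelled libraries. The shares of neither set overlapped between the labels.

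The libraries labelled fat pad control lay near parenchyma in both sets except for number 18. This resemblance was the reason for leaving them out, so it is not a separate finding. Numbers 1 and 2 are the control libraries noted above that carry PAR, the series title's abbreviation for parenchyma, in their titles. The parenchyma-side set took 16.6%, 14.9% and 13.0% of counts in numbers 1, 2 and 21, and 4.60% in number 18, against 13.5% to 15.9% in the 3 parenchyma controls. The fat-pad-side set took 0.863%, 1.05% and 1.34% in numbers 1, 2 and 21 and 3.29% in number 18, against 0.953% to 1.09% in parenchyma controls. Number 18 therefore had a low share in the parenchyma-side set and a share in the fat-pad-side set below that of all 12 fat-pad-labelled libraries, whose lowest was 6.89%. That lowest share was in a restricted library, where the set was chosen, and the lowest among unlimited ones was 7.06%. Liver libraries of restricted and unlimited calves were at 6.90% to 9.32% for the first set and 4.92% to 6.95% for the second. In the first set they lay between the labels but for an overlap with fat-pad-labelled library 11 of unlimited calves. In the second they did so but for an overlap with the lower end of fat pad, which involved restricted fat-pad-labelled libraries only.

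**Figure D5:**
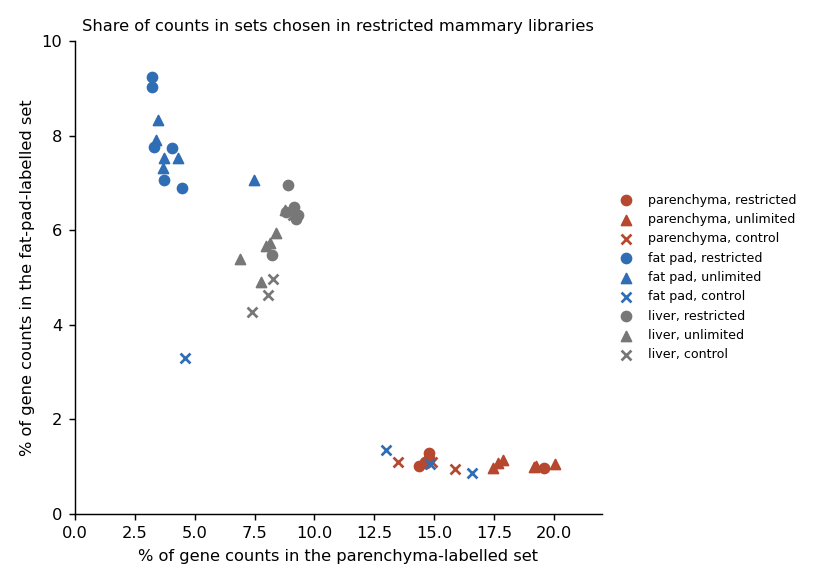
Percent of each library's gene counts in the set higher in parenchyma (horizontal axis) and in the set higher in fat pad (vertical axis), both chosen in restricted libraries, with color for tissue label and symbol for diet, for all 47 libraries. Parenchyma-labelled libraries lie at 13.5% or more and at most 1.28% on the axes, fat-pad-labelled restricted and unlimited ones at most 7.49% and at least 6.89%, and 3 of 4 libraries labelled fat pad control lie near parenchyma.

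Many genes of both sides were also present in liver. Over 12 liver libraries of restricted and unlimited calves, a median of 1 CPM or more was found for 74.5% of the 1489 genes on the parenchyma side and 62.1% of the 2010 on the fat pad side, against 83.1% of all tested genes. The difference between these shares was not tested.

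Over all tested genes, the spread between libraries was of like size under both labels. In the sets chosen in restricted libraries it was wider under the fat pad label on the log2 scale. The common coefficient of biological variation was 0.266 under the parenchyma label and 0.276 under the fat pad label, and the median over genes 0.234 and 0.215. In the parenchyma-side set, the mean log2(CPM + 1) over its genes spanned 2.82 to 3.84 in fat-pad-labelled libraries and 5.09 to 5.36 in parenchyma-labelled ones. Library 11 of the unlimited fat pad group set the upper end, and without it the fat pad range was 2.82 to 3.34. As a share of counts, the same set spanned 14.4% to 20.1% under the parenchyma label and 3.20% to 7.49% under the fat pad label. In percentage points the parenchyma label spanned more, and relative to level the fat pad label did, with library 11 at the upper end. In the fat-pad-side set, the mean log2(CPM + 1) spanned 3.83 to 4.19 in fat-pad-labelled libraries and 1.65 to 1.80 in parenchyma-labelled ones. These ranges include the restricted libraries, in which the sets were chosen. Library 11 also lay nearest to parenchyma on the first principal component, at 61.0. Its share of counts in the parenchyma-side set was 7.49%, and in the fat-pad-side set 7.06%. Without any single library, between 10381 and 10675 genes were called.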

How the data were processed

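Ribosomal-RNA-depleted tissue RNA was sequenced as paired reads of 150 cycles, per the labels' protocols. STAR 2.7.8, HTSeq 1.99.2, FastQC, DESeq2 and the build ARS-UCD1.2 are named in the submitters' processing notes. The deposited values are whole-number read counts per gene; the notes name no strand or multiple-alignment setting, so overlapping and antisense genes cannot be told apart and near-identical copies are uncertain. The 5 summary rows, left out of every total and test, hold the reads not assigned to a gene; 23.9% to 46.4% of uniquely placed reads were assigned.

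Counts were tested with edgeR 4.0.16 (R 4.3.3): filterByExpr (minimum count 10, minimum total 15), TMM, robust quasi-likelihood fit with diet and tissue label, and Benjamini-Hochberg adjustment over all 16077 genes tested, with 11530 of 27607 genes left out as too low. glmTreat tested against 2-fold. Levels are CPM on TMM-scaled library sizes. Errors of log2 differences, marked SE, are the absolute log2 difference over the square root of the quasi-likelihood F statistic. They were not estimated directly, and may be too small for genes with few counts under a label. Library measures used two-sided permutation tests (100000 resamples). The main fit was run on simulated counts with 69, 66 and 65 genes changed 1.5-fold, 2-fold and 4-fold, and 15803 genes tested. It recovered 55.1%, 75.8% and 96.9% of them, with 8 false calls among 159. With so few genes changed, the simulation cannot speak to the scaling of data in which most genes differ.

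The genes named are the 2 of lowest p in each direction with mean log2 CPM of 1 or more. Comparison, lists and naming rule were chosen with earlier results of these data known. Lists, markers and promoters needed gene names and were not run. Alternatives used limma 3.58.1 voom, DESeq2 1.42.0, other filters and scalings, covariates and left-out libraries.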

Additional observations from a re-analysis of the deposited data

Results flagged for a closer look

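In each group of 6, the highest or lowest library was compared with the gap to its neighbour, over 60 groups of values. Chance gives about 1 such case in 20 groups, and 7 were found. Library 5 of restricted parenchyma held 17.2 M counts, against 9.70 to 11.8 M in the others. Library 8 of restricted fat pad had 20157 genes detected at the lowest depth (others 18681 to 19119), and library 6 of unlimited fat pad had 18200 (others 18665 to 18862). The 10 most abundant genes took 17.7% of counts in library 3 of unlimited parenchyma, against 15.1% to 15.9%.

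The set higher in parenchyma took 7.49% of counts in library 11 of unlimited fat pad, against 3.39% to 4.30% in the others of that group. The same set took 19.6% in library 10 of restricted parenchyma, against 14.4% to 14.8%, but restricted libraries were those in which the set was chosen. ENSBTAG00000004899 was at 48.3 CPM in library 11 of unlimited fat pad, against 25.6 to 32.4 CPM.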

How the results depend on the processing

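Over 34 alternatives the total number of called genes ran from 7369 (restricted libraries alone) to 11728 (no filter on low counts). The 4 genes described by identifier kept their direction and call in all of them, which their choice by lowest p in these libraries made nearly certain. Leaving out 1 library at a time gave 10381 to 10675. Relative log expression factors gave 10567, DESeq2 11533, limma voom 10838 and the assigned share as a covariate 10560. With at least 50 counts in at least 12 libraries, 1070 genes were beyond 2-fold higher in parenchyma and 1223 in fat pad. Of the 2010 fat pad genes, 770 were not tested there. The calls of any size were then 4272 on the parenchyma side and 4181 on the fat pad side. At 8-fold or more there were 192 and 379. The lean to fat pad beyond 2-fold was thus smaller without genes of low count. Total counts with no scaling factors, an alternative added after seeing the data, gave 3135 genes on the parenchyma side and 8462 on the fat pad side.

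Numbers in the titles were not taken to pair the samples, which required every same-numbered pair to correlate above 0.1 in its deviations from the group means, and 7 of 12 did. The pairs ran from 0.0173 to 0.177, all positive, while the mean with other numbers was -0.0449 to -0.00589. In unlimited calves 6 of 6 parenchyma libraries correlated best with their own number and 5 of 6 pairs exceeded 0.1; in restricted calves both counts were 2 of 6. This is a hint of pairing from the data. The numbering gives another: the same 6 numbers of a diet recur under both tissue labels and in liver. No number is shared between restricted and unlimited calves. The labels do not say that a number stands for a calf, and the main fit and permutation tests treated the libraries as unpaired. With the number as a replicate block, 10434 genes were called, 4984 higher in parenchyma and 5450 in fat pad.

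The alternatives for gene lists were not run, as identifiers could not be paired with names. Depth limits genes of low count: those with 0 counts under a label are known only to lie below the limit given above, and the tissue labels were not verified by markers.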

Other observations

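On the second principal component, which carried 5.16% of the variance, the diets did not overlap under the parenchyma label: restricted libraries lay between -46.0 and -0.16, and unlimited ones between 11.1 and 48.1. Under the fat pad label they overlapped, at -38.7 to 21.8 and -5.21 to 29.4. These positions are values of the libraries the component was computed from, and no test was made.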
